A study of Mus musculus with 16 samples.

Results

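The circadian clock genes described here were 10 genes listed by symbol, Bmal1 (also called Arntl), Clock, Per1, Per2, Per3, Cry1, Cry2, Nr1d1, Nr1d2 and Dbp, and all 10 were found by Ensembl gene ID among the 51912 genes of the count table. The mammalian clock is a transcriptional feedback loop: the BMAL1 and CLOCK proteins bind together at E-box sequences and switch on the Per, Cry, Nr1d and Dbp genes, the PER and CRY proteins then block BMAL1 and CLOCK, and the NR1D receptors repress Bmal1. In a tissue with a running clock, Bmal1 RNA therefore peaks when Dbp, Per3 and Nr1d1 RNA is low, and the cardiomyocyte clock is known for setting the daily course of heart metabolism and excitability. The comparisons below ask whether the levels of these genes differed between the 4 groups of the study, and whether the Bmal1 arm and the arm of its targets moved against each other among the libraries.

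RNA came from whole ventricles of newborn mice that had surgery at postnatal day 1 and were collected 7 days later, with 4 libraries in each group. WT SH were wild-type mice after sham surgery, KO SH were mice with germline loss of Lrrc10 after sham surgery, WT MI were wild-type mice after ligation of the left anterior descending artery, and KO MI were Lrrc10-null mice after the same ligation. Lrrc10 encodes a leucine-rich repeat protein of cardiomyocytes, the wild types were C57BL/6J mice from a supplier, the Lrrc10-null mice were generated in a C57BL/6 background, and both kinds of surgery shared the cold anaesthesia and the opening of the chest, while the sham mice had neither exposure of the heart nor ligation. The time of day of collection is not given in the sources used here, and neither is whether a library was made from 1 animal, so p-values measure the spread between these libraries.

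Total counts per library ran from 33783874 to 57470159. Lrrc10 had 0 counts in all 8 KO libraries and 1075 to 1850 counts in the WT libraries. Xist, the RNA that coats the inactive X chromosome of female cells, was at 919 to 985 CPM (counts scaled by library size with TMM factors) in KO SH replicates 1 and 2, WT MI replicates 2 and 4 and KO MI replicates 1 and 2, and at 6.18 to 23.4 CPM in the other 10, among them all 4 WT SH libraries, although the labels call the groups balanced for sex. KO MI replicates 2 and 7 stood apart by skeletal muscle genes: Myh8, a developmental skeletal muscle myosin, was at 42.3 and 58.5 CPM there and at 0.363 to 5.10 CPM in the other 14. Where leaving out these 2 libraries changed a call or a description below, the value without them is given beside it.

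All 10 clock genes were among the 20159 genes whose counts summed to 10 or more within every group, and their lowest count in any library was 183, for Bmal1. Counted per kilobase of merged exon, Clock was the most abundant member at a mean of 6.49 CPM per kb over the 16 libraries. Nr1d2 followed at 4.89, Per3 at 2.93, Nr1d1 at 2.86, Dbp at 2.52, Cry2 at 1.86, Per1 at 1.58, Cry1 at 1.41, Per2 at 1.14 and Bmal1 at 0.544 CPM per kb. The ranges over libraries of neighbours in this order overlapped for Clock and Nr1d2 (5.48 to 7.00 against 3.05 to 6.62 CPM per kb), for Nr1d2 and Per3 (3.05 to 6.62 against 1.72 to 3.81 CPM per kb) and for each pair from Per3 to Per2, whereas the highest library of Bmal1, 0.662 CPM per kb, lay under the lowest of Per2, 0.896. The ratio of the highest to the lowest library in CPM was smallest for Clock, at 1.28, and largest for Per1, at 2.23.

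**Figure D1:**
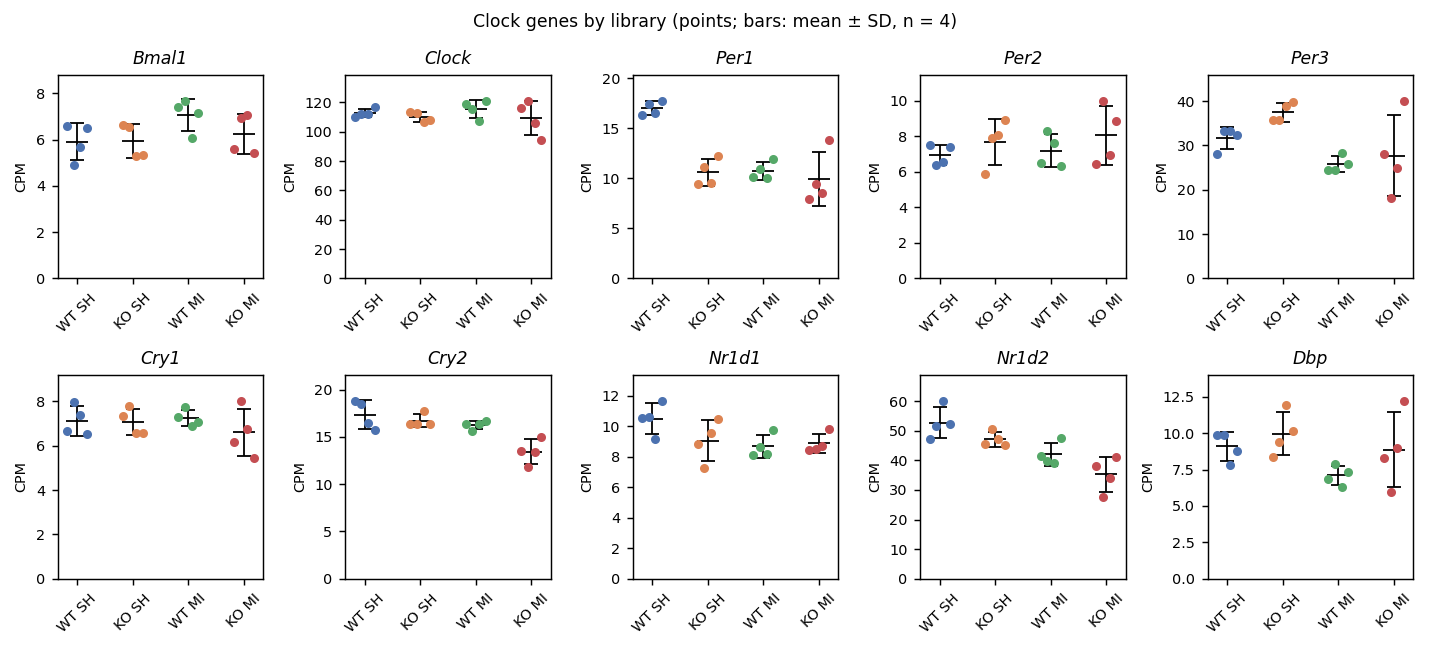
Levels of the 10 clock genes in CPM (y axes, each starting at 0) in the 4 groups; points are libraries and bars are the mean ± SD, n = 4. Per1 sat between 16.4 and 17.7 CPM in WT SH and at or below 13.8 CPM in the other 12 libraries, while Clock stayed between 94.5 and 121 CPM throughout.

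Per1 (ENSMUSG00000020893, GRCm39 chr11:68986035-69002300, plus strand) encodes a period protein of the repressor arm and is also a rapid-response gene. It was the member that changed most between groups. In WT SH it was at 16.4, 17.4, 16.5 and 17.7 CPM in replicates 1 to 4. In KO SH it was at 9.47, 11.2, 9.49 and 12.3 CPM. Every KO SH library lay below every WT SH library, a lower level without overlap that 10.2% of all genes tested had. Group means were 16.99 ± 0.674 CPM in WT SH and 10.6 ± 1.37 CPM in KO SH (SD, n = 4), a difference of -37.6%. The log2 fold change was -0.68 (SE 0.13), with an adjusted p of 0.00508 by the quasi-likelihood test of edgeR with Benjamini-Hochberg adjustment over all genes tested. A gene is counted as called below where this adjusted p was under 0.1 and the log2 fold change at least 0.5 in size. Per1 was the 1 member of 10 called in this comparison. Of all genes tested, 5.01% were called in either direction and 2.53% were called lower. The exact permutation test of Per1 alone (two-sided) gave p = 0.0286, the smallest that 4 against 4 libraries allow. In bulk tissue, fewer cells of a type and less RNA per cell cannot be told apart.

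The same gene fell after infarction in wild-type hearts. In WT MI, Per1 was at 10.1, 10.98, 10.03 and 11.97 CPM in replicates 1 to 4. All 4 lay under the WT SH range, as in 5.94% of all genes tested, and inside the span of the KO SH libraries. The WT MI mean was 10.8 ± 0.905 CPM (SD, n = 4), and the log2 fold change against WT SH was -0.66 (SE 0.13, adjusted p = 0.0128, edgeR). Per1 was again the 1 member of 10 called. Of all genes tested, 2.78% were called in either direction and 0.645% were called lower. This comparison and the preceding one share the 4 WT SH libraries, so the 2 falls are not separate observations of the WT SH level. All 4 WT SH libraries were of the low-Xist kind: with log2 CPM of Xist as a covariate in the edgeR fit the log2 fold change was -0.61 in KO SH (adjusted p = 0.0249) and -0.58 in WT MI (adjusted p = 0.0667). The low-Xist libraries of KO SH, replicates 3 and 4, were at 9.49 and 12.3 CPM, and those of WT MI, replicates 1 and 3, at 10.1 and 10.03 CPM, each below the lowest WT SH library.

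In KO MI, Per1 was at 7.93, 9.45, 8.54 and 13.8 CPM in replicates 1, 2, 3 and 7. Replicate 7 was the highest library outside WT SH and the other 3 were the lowest of all 16. The log2 fold change was -0.12 (SE 0.13, adjusted p = 0.803) against WT MI and -0.10 (SE 0.13, adjusted p = 0.707) against KO SH, both by edgeR. Without replicate 7 these values were -0.32 (adjusted p = 0.0764) and -0.29 (adjusted p = 0.0374), both under the minimum fold. The KO effect on Per1 post-MI minus that post-sham was 0.56 on the log2 scale (SE 0.19), with an unadjusted p of 0.00835 and an adjusted p of 0.223 by edgeR. No member was called for this difference of effects by edgeR, 1 had an unadjusted p under 0.05, and DESeq2 called 1, Per1 (0.57, adjusted p = 0.0931). Without KO MI replicate 7 the difference was 0.37 (adjusted p = 0.110, edgeR), and without replicates 2 and 7 it was 0.28 (adjusted p = 0.301). Of all genes tested, 0.0248% were called for this difference by edgeR.

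The sequences next to the start sites of Per1, Per3 and Dbp are shown because Per1 was the member called and because Per3 and Dbp are set against Bmal1 further on. They are the 250 bases upstream of the start site of each canonical transcript in GRCm39, read 5′ to 3′ on the gene's strand, at chr11:68989018-68989267 (plus strand), chr4:151129141-151129390 (minus strand) and chr7:45354262-45354511 (plus strand). Capitals mark matches on either strand to the E-box CACGTG, where BMAL1 and CLOCK bind, to the D-box TTATGTAA or TTACGTAA, where DBP, TEF, HLF and NFIL3 bind, or to the ROR element (RORE), an A and T rich start before AGGTCA or GGGTCA, where ROR and NR1D receptors bind; no match overlapped another.
Per1: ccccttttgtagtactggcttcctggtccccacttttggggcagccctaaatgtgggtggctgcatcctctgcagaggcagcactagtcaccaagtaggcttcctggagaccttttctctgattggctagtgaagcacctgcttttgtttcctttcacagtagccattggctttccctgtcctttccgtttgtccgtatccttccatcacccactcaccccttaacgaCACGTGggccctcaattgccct
Per3: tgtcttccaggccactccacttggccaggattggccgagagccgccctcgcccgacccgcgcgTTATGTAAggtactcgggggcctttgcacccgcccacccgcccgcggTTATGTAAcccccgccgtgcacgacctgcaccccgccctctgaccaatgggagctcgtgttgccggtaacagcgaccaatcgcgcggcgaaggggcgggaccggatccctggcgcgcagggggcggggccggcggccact
Dbp: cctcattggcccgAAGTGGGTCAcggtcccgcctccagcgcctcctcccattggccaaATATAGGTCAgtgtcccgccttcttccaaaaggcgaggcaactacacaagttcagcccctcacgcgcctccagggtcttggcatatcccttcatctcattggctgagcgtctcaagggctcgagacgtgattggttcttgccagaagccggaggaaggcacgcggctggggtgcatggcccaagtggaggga
Per1 holds an E-box that begins 22 bases before its start site. Per3 holds a D-box at 187 and another at 140 bases before its start, the same letters each time, and Dbp holds a RORE at 237 and another at 192 bases before its start. Of the other members, Cry1 had an E-box and Per2 a D-box in this window. Over 21770 promoters of protein-coding genes of the same length, 6.26% held the E-box, 0.937% the D-box and 0.638% the RORE. The cAMP response element TGACGTCA was in 1.69% of them and in no member. A match describes letters in the window and not a bound site.

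Per3, the third period gene and in the heart a strongly rhythmic one, was the highest in KO SH. It was at 28.2, 33.4, 33.2 and 32.3 CPM in WT SH and at 35.7, 35.7, 39.0 and 39.8 CPM in KO SH. The KO SH libraries all lay above the WT SH libraries, and the exact permutation p was 0.0286 (two-sided). The test across all genes did not call it (log2 fold change 0.24, SE 0.15, adjusted p = 0.362, edgeR). Groups without overlap in this direction made up 8.35% of all genes tested. In WT MI, Per3 was at 24.5, 24.5, 28.3 and 25.9 CPM, with a log2 fold change of -0.30 against WT SH (SE 0.15, adjusted p = 0.342, edgeR). WT SH replicate 1 lay inside the WT MI range and the other 3 above it. With log2 CPM of Xist as a covariate the log2 fold change of Per3 was 0.41 in KO SH (adjusted p = 0.113) and -0.13 in WT MI (adjusted p = 0.751), and when only the groups compared were fitted it was 0.24 (adjusted p = 0.0264) and -0.29 (adjusted p = 0.0392), in each case under the minimum fold.

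Per3 differed most among the KO MI libraries, at 28.0, 18.1, 24.9 and 40.001 CPM in replicates 1, 2, 3 and 7. Replicate 2 was the lowest and replicate 7 the highest of all 16 libraries. The log2 fold change of KO MI against KO SH was -0.44 (SE 0.15, adjusted p = 0.0681, edgeR), under the minimum fold. It was -0.67 without replicate 7 (adjusted p = 0.000591), -0.28 without replicate 2 (adjusted p = 0.182) and -0.52 without both (adjusted p = 0.00109), so the 2 libraries that stand apart by skeletal muscle genes decided this call. Against WT MI the log2 fold change of KO MI was 0.10 (SE 0.15, adjusted p = 0.865).

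Per2, the remaining period gene, was called in none of the comparisons. Its lowest and highest libraries were 6.36 and 7.52 CPM in WT SH, 5.88 and 8.92 in KO SH, 6.32 and 8.31 in WT MI and 6.44 and 9.98 in KO MI, so that the 4 ranges overlapped. Its log2 fold changes lay between 0.05 (WT MI against WT SH) and 0.16 (KO MI against WT MI), with intervals that included 0.

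Cry2, a cryptochrome that works with the PER proteins as a repressor, was lower in KO MI. The KO MI replicates 1, 2, 3 and 7 held 13.5, 11.8, 13.4 and 15.04 CPM of it, against 16.4, 15.6, 16.4 and 16.6 CPM in WT MI and 16.3, 16.4, 17.8 and 16.4 CPM in KO SH. All 4 KO MI libraries lay under all libraries of both other groups. Against WT MI the log2 fold change was -0.28 (SE 0.075, adjusted p = 0.0726, edgeR), and relative to sham hearts of the same genotype it was -0.32 (SE 0.075, adjusted p = 0.0124), both under the minimum fold. It was the 1 member with an adjusted p under 0.1 at any fold in the first, against 2.04% of all genes in that direction. In the first of these comparisons, 0 members were called where 1.73% of all genes tested were, 2 members had an unadjusted p under 0.05 by edgeR, and DESeq2 called 0. Lower levels without overlap were seen in 3.73% of all genes in the first comparison and in 7.24% in the second. With KO MI replicates 2 and 7 left out, the log2 fold changes of Cry2 were -0.28 (adjusted p = 0.0781) and -0.32 (adjusted p = 0.0105). The first lost its adjusted p under 0.1 when only the groups compared were fitted (adjusted p = 0.235) and when KO MI replicate 2 or 3 or WT MI replicate 1, 3 or 4 alone was left out (adjusted p from 0.143 to 0.192). The difference between the genotypes' own effects of infarction was -0.22 (SE 0.11, adjusted p = 0.368). WT MI against WT SH gave -0.09 (SE 0.074, adjusted p = 0.568), and the WT SH libraries spanned 15.7 to 18.7 CPM.

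Cry1, the other cryptochrome, was not called in any comparison, and its group means were 7.13 ± 0.678 CPM in WT SH, 7.07 ± 0.603 in KO SH, 7.25 ± 0.371 in WT MI and 6.59 ± 1.07 in KO MI (SD, n = 4). The largest log2 fold change was -0.13 (SE 0.10, adjusted p = 0.690, edgeR), in KO MI against WT MI, with a 95% interval from -0.35 to 0.09.

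Nr1d2, the REV-ERB beta receptor that represses Bmal1, was the more abundant NR1D gene per kilobase, and its group means were 52.8 ± 5.26 CPM in WT SH, 47.1 ± 2.53 in KO SH, 42.0 ± 3.93 in WT MI and 35.2 ± 5.89 in KO MI (SD, n = 4). It was at 47.3, 51.5, 59.9 and 52.4 CPM in WT SH, at 45.5, 50.6, 47.2 and 45.04 CPM in KO SH, at 41.6, 39.9, 39.0 and 47.7 CPM in WT MI and at 38.2, 27.6, 33.9 and 41.2 CPM in KO MI. Neighbouring groups in this order overlapped, and the KO MI libraries all lay below the KO SH libraries. The log2 fold change was -0.42 in KO MI against KO SH (SE 0.10, adjusted p = 0.0139, edgeR) and -0.33 in WT MI against WT SH (SE 0.10, adjusted p = 0.0941), both past the adjusted p and under the minimum fold. In KO MI against KO SH, 3 of the 10 members (Per3, Cry2 and Nr1d2) had an adjusted p under 0.1 at any fold, all lower, against 7.32% of all genes tested, and 0 members were called, against 7.42% of all genes; the 3 also had an unadjusted p under 0.05, and DESeq2 called 0. In WT MI against WT SH, 2 of the 10 (Per1 and Nr1d2) had an adjusted p under 0.1 at any fold, against 2.21% of all genes tested in that direction. Nr1d2 lost this with log2 CPM of Xist as a covariate (adjusted p = 0.212, edgeR). The same happened when WT MI replicate 1 (adjusted p = 0.176) or 3 (adjusted p = 0.21) alone was left out. Nr1d2 kept it by DESeq2 (adjusted p = 0.0385) and when only the groups compared were fitted (adjusted p = 0.0476, edgeR). Without KO MI replicate 7 the fall of Nr1d2 in KO MI against KO SH reached -0.50 (adjusted p = 0.00207) and was called.

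Nr1d1, the REV-ERB alpha receptor, was not called in any comparison. Its group means were 10.5 ± 1.02 CPM in WT SH, 9.05 ± 1.35 in KO SH, 8.68 ± 0.761 in WT MI and 8.87 ± 0.640 in KO MI (SD, n = 4). The lowest adjusted p was that of WT MI against WT SH (log2 fold change -0.27, SE 0.10, adjusted p = 0.175, edgeR). Its gene span, introns included, shares 3173 bases with that of Thra on the opposite strand. Thra had a mean of 4683 counts per library against a median of 400.5 for Nr1d1. How much of the shared span is exon was not computed. The libraries were strand-specific, but whether the counting used strand is not given in the sources used here. If it did not, reads from any shared exon cannot be told apart. The same holds for 16020 bases of gene span that Clock shares with Tmem165 (mean 591.5 counts). It also holds for 737 that Dbp shares with Sphk2 (mean 223 counts), each pair on opposite strands.

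Dbp, a D-box activator and a direct BMAL1 and CLOCK target, was not called in any comparison. It was at 9.88, 9.89, 7.81 and 8.75 CPM in WT SH, at 8.39, 9.40, 11.9 and 10.1 CPM in KO SH, at 6.87, 7.88, 6.32 and 7.32 CPM in WT MI and at 8.32, 5.98, 9.001 and 12.2 CPM in KO MI. WT MI was the lowest group, with 1 library inside the WT SH range, and KO MI held both the lowest and the highest library of the 16. The log2 fold change was -0.36 in WT MI against WT SH (SE 0.16, adjusted p = 0.268, edgeR) and 0.31 in KO MI against WT MI (SE 0.16, adjusted p = 0.449). The second was 0.13 without KO MI replicate 7 and 0.46 without replicate 2 (adjusted p = 0.713 and 0.122).

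The positive arm did not pass the test in any comparison. Bmal1, the partner without which CLOCK does not drive the loop, was at 6.59, 4.89, 5.69 and 6.48 CPM in WT SH, at 6.63, 6.54, 5.28 and 5.32 CPM in KO SH, at 7.40, 7.66, 6.07 and 7.15 CPM in WT MI and at 5.59, 6.95, 7.05 and 5.40 CPM in KO MI. The groups overlapped, WT MI having the highest mean. The log2 fold change of WT MI against WT SH was 0.25 (SE 0.12, adjusted p = 0.306, edgeR), with a 95% interval from -0.0016 to 0.51. For Clock, the lowest group mean was that of KO MI, 109 ± 11.6 CPM, and the highest that of WT MI, 116 ± 5.98 CPM (SD, n = 4), and the 95% intervals of its log2 fold changes stayed between -0.22 and 0.17.

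**Figure D2:**
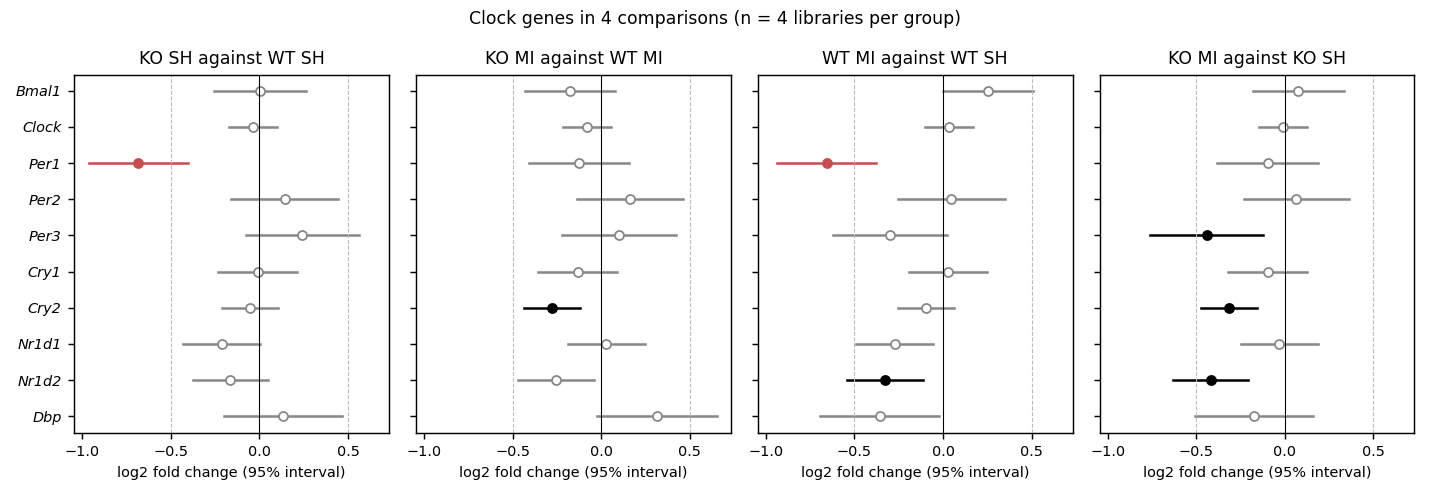
Log2 fold changes (x axes) of the 10 clock genes in the 4 comparisons, with 95% intervals from the edgeR fit; red marks called genes, black filled points an adjusted p under 0.1 below the minimum fold of 0.5 (dashed lines), and grey open points the rest. Per1 is red in KO SH against WT SH (-0.68) and in WT MI against WT SH (-0.66), and the black points in the KO MI panels are Cry2 (-0.28 and -0.32), Nr1d2 (-0.42) and Per3 (-0.44).

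Within groups, the spread of the clock genes differed by member. The pooled within-group SD of log2 CPM was 0.26 for Dbp and 0.25 for Per3, which put them at percentiles 94.1 and 97.3 of the 1000 genes nearest in abundance. Nr1d2, Per1 and Per2 followed at percentiles 89.2, 88.3 and 87.1. Bmal1 (69.4), Nr1d1 (62.5), Cry1 (51.5), Clock (50.8) and Cry2 (39.6) lay nearer the middle. For Per3 the SD expected from counting error alone was 0.040. Without KO MI replicates 2 and 7 the SD was 0.10 for Per3 (percentile 75.9) and 0.17 for Dbp (percentile 82.8), so the place of Per3 and Dbp at the top rested on these 2 libraries, and Per2 (88.4) and Nr1d2 (88.1) were then the highest by percentile.

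The members did not all deviate together. Of 45 pairs of members, 21 had a correlation above 0 and 24 below 0 after the group means were removed, with a median of -0.019. KO MI replicate 7 stood above its group mean by 0.59 for Per3, 0.51 for Per1 and 0.50 for Dbp on the log2 scale, and below it by -0.26 for Cry1, -0.20 for Clock and -0.20 for Bmal1. In KO MI replicate 2, Per3 (-0.56), Dbp (-0.52) and Nr1d2 (-0.34) were low, and Cry1 (0.29), Bmal1 (0.16) and Clock (0.15) were high, each opposite to replicate 7. Per2 was above the group mean in both (0.33 and 0.16), and Per1 was near it in replicate 2 (-0.04). Both are the libraries high in skeletal muscle genes, and mt-Rnr2, a mitochondrial ribosomal RNA, took 29.8% of the counts of replicate 2 and 32.5% of replicate 7 against 33.5% to 37.6% in the other 14 libraries. The 6 skeletal muscle markers summed to 325 to 364 CPM in KO MI, 293 to 321 in WT MI, 299 to 334 in KO SH and 317 to 390 in WT SH, most of it Ckm, which heart muscle also expresses. The part of these measures in the clock gene deviations was not tested.

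**Figure D3:**
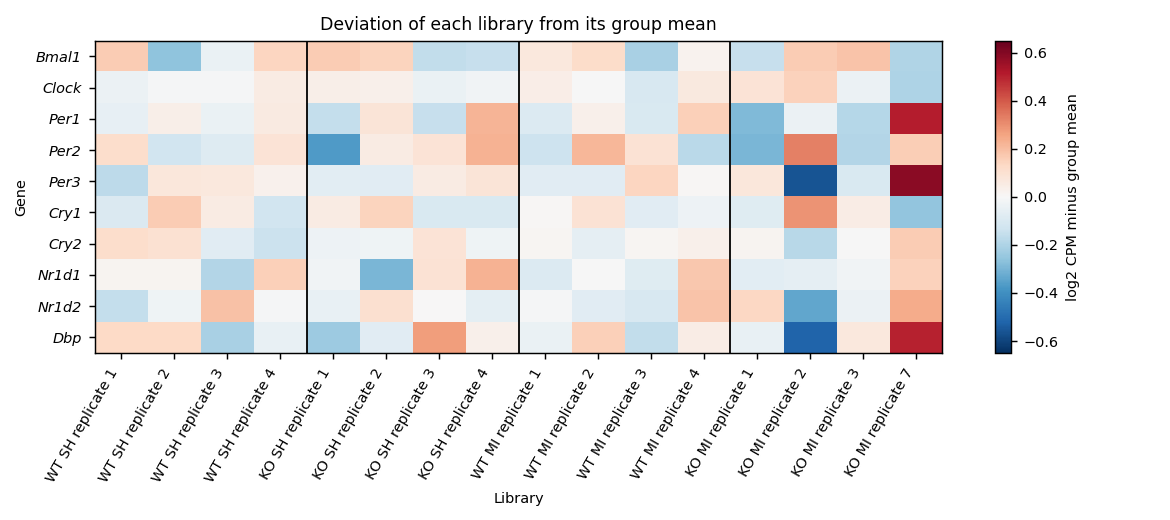
Deviation of each library (columns, by group) from its group mean in log2 CPM (colour, red above and blue below) for the 10 clock genes (rows). The darkest cells are in KO MI replicates 2 and 7, where Per3 is at -0.56 and 0.59 and Dbp at -0.52 and 0.50.

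Bmal1 and Per3 ran against each other among the libraries. After the group means were removed, Pearson's r of their log2 CPM was -0.67 over 16 libraries, with an exact permutation p of 0.000793 (two-sided, libraries permuted within groups) and an adjusted p of 0.00713 over the 9 relations of Bmal1 with the other members. Spearman's rho was -0.87 (exact permutation p = 0.000304). Pooled without removing the means, r was -0.69 (permutation p = 0.00323, adjusted 0.0291) and rho -0.76 (permutation p = 0.00106, adjusted 0.00954). Leaving out WT SH replicate 2 and KO SH replicate 3, the 2 libraries farthest from the median of Bmal1, gave -0.73 with the means removed and -0.68 pooled. The r within each group was -0.68 in WT SH, -0.98 in KO SH, -0.98 in WT MI and -0.82 in KO MI, on 4 libraries each. Without KO MI replicates 2 and 7, r was -0.87.

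In KO SH this relation went with Xist: the high-Xist replicates 1 and 2 had more Bmal1 and less Per3 than the low-Xist replicates 3 and 4. Among the 10 low-Xist libraries alone r was -0.79 (exact permutation p = 0.0729), and among the 6 high-Xist libraries -0.98 (exact permutation p = 0.5, where 0.25 is the smallest 8 orders allow). The sign of r was thus the same in both kinds of library, and neither kind alone passed 0.05. Inside each kind of KO SH library the order was the reverse. Replicate 1 had more Bmal1 than replicate 2 (6.63 and 6.54 CPM) and slightly more Per3 (35.73 and 35.67 CPM). Replicate 4 likewise exceeded replicate 3 (Bmal1 5.32 and 5.28, Per3 39.8 and 39.0 CPM). The high-Xist r came from 6 libraries in 3 groups, among them KO MI replicates 1 and 2 (Per3 28.0 and 18.1 CPM).

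Bmal1 and Dbp did not show a relation that passed the test within groups. With the means removed, r was -0.39 (exact permutation p = 0.226, adjusted 0.410) and rho -0.28 (exact permutation p = 0.358), and pooled r was -0.58 (permutation p = 0.0177, adjusted 0.0797) and rho -0.62 (permutation p = 0.0126, adjusted 0.0567). Without WT SH replicate 2 and KO SH replicate 3 the values were -0.27 with the means removed and -0.48 pooled. Within groups r was -0.10 in WT SH, -0.86 in KO SH, 0.86 in WT MI and -0.65 in KO MI, so the sign in WT MI was the opposite one. Without KO MI replicates 2 and 7, r was -0.12. In the low-Xist libraries alone it was -0.35 (exact permutation p = 0.536) and in the high-Xist libraries -0.84 (exact permutation p = 0.750). Of the other 7 relations of Bmal1, that with Clock was 0.48 (exact permutation p = 0.112), those with Cry2 -0.52 (0.0957), Cry1 0.39 (0.228), Nr1d2 -0.34 (0.283), Nr1d1 -0.26 (0.397), Per1 -0.23 (0.560) and Per2 -0.02 (0.951), none past the threshold.

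**Figure D4:**
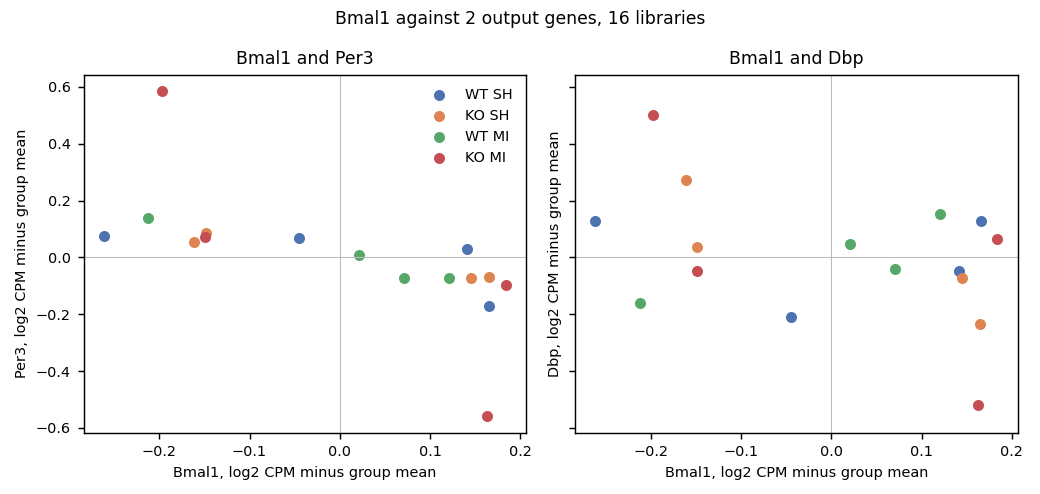
Bmal1 (x axes) against Per3 and Dbp (y axes) in 16 libraries (points, coloured by group), each as log2 CPM minus its group mean. The Per3 points run from upper left to lower right (r = -0.67), with KO MI at both ends; the Dbp points are scattered (r = -0.39).

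Among all pairs of members, given as a description, Cry2 and Dbp had the highest correlation after the means were removed (0.79), followed by Per3 with Nr1d2 (0.73) and Per3 with Dbp (0.71). The lowest were Clock with Per3 (-0.77), Per3 with Cry1 (-0.75) and Clock with Dbp (-0.71). All of these pairs were closer to 0 without KO MI replicates 2 and 7, where Cry2 with Dbp was at 0.54, Per3 with Nr1d2 at 0.28, Per3 with Dbp at -0.16, Clock with Per3 at -0.15, Per3 with Cry1 at -0.26 and Clock with Dbp at -0.21. Bmal1 with Per3 was the lowest pair without them (-0.87). Over 14118 genes with a mean of at least 1 CPM, the 5 genes most like Bmal1 by the same r over 16 libraries were Dlgap5 (0.90), Ssna1 (0.89), Hmmr (0.89), Nusap1 (0.89) and Sass6 (0.88), of which Dlgap5, Hmmr and Nusap1 encode proteins of the mitotic spindle and Sass6 one of the centriole. The 5 least like it were Gm37949 (-0.84), Nmnat3 (-0.81), Sin3b (-0.79), Trim43c (-0.78) and Ring1 (-0.78). For Dbp, the 5 most like it were Abtb1 (0.91), Gm43750 (0.87), Gm14769 (0.87), Akap13 (0.86) and Pkig (0.86), and the 5 least like it Heatr5b (-0.90), Nrarp (-0.89), Mapk1ip1l (-0.89), Tspan6 (-0.88) and Mrpl19 (-0.87). No other member was among these genes. Without KO MI replicates 2 and 7 the same genes stood at 0.86 to 0.92 and -0.84 to -0.73 with Bmal1, and at 0.63 to 0.86 and -0.76 to -0.67 with Dbp.

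Of 19 other genes of the clock, all tested, 4 were called in KO SH against WT SH, where 5.01% of all genes tested were called. By edgeR, 12 of the 19 had an unadjusted p under 0.05 there. The share of all genes tested at this unadjusted p was not computed. Such counts, here and for the other lists, therefore do not show an excess. Bhlhe40, a repressor that competes for E-boxes, was at 43.1 to 44.1 CPM in WT SH and 25.4 to 31.3 CPM in KO SH (log2 fold change -0.63, SE 0.11, adjusted p = 0.00197, edgeR). Nfil3, a repressor at D-boxes, was at 5.63 to 6.73 CPM in WT SH and 3.57 to 4.87 CPM in KO SH (-0.52, SE 0.12, adjusted p = 0.0146). Both repressors thus fell without overlap of the groups. Hlf, a D-box activator related to Dbp, was at 23.99 to 27.2 CPM in WT SH and 36.3 to 38.8 CPM in KO SH (0.54, SE 0.13, adjusted p = 0.0175). Rorb, a receptor that activates through ROREs, was at 4.28 to 4.65 CPM in WT SH and 5.74 to 8.21 CPM in KO SH (0.71, SE 0.16, adjusted p = 0.0119). These 2 rose, also without overlap. The median log2 fold change of the 19 genes was -0.06 against 0.01 over all genes tested, so the list had no common direction. Usp2, a deubiquitinase of clock proteins, was among the 3 with the lowest adjusted p and was not called, being under the minimum fold (-0.32, adjusted p = 0.0126). DESeq2 called the same 4 and Ciart.

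In the other comparisons 3 further calls were made among these genes. The KO MI replicates 1, 2, 3 and 7 held 28.2, 15.3, 25.5 and 27.6 CPM of Hlf, all below the KO SH libraries (-0.64, SE 0.13, adjusted p = 0.00498, edgeR). Rorb was at 6.28, 3.94, 4.22 and 4.52 CPM there and was also called against KO SH (-0.64, SE 0.16, adjusted p = 0.0155), with 1 KO MI library inside the KO SH range. Neither was called without KO MI replicates 2 and 7, where Hlf was at -0.49 (adjusted p = 0.000559) and Rorb at -0.50 (adjusted p = 0.0943), just under the minimum fold. In KO MI against WT MI the call was Csnk1e, a kinase of PER proteins, at 62.9 to 74.5 CPM in KO MI and 76.5 to 107 CPM in WT MI (-0.54, SE 0.13, adjusted p = 0.0306), with Rora (-0.20, adjusted p = 0.0991) and Bhlhe41 (0.33, adjusted p = 0.119) next and not called. In WT MI against WT SH 0 of the 19 were called by edgeR and 0 by DESeq2, 6 had an unadjusted p under 0.05, and Usp2 (-0.34, adjusted p = 0.0181), Tef (-0.31, adjusted p = 0.0252) and Bhlhe40 (-0.40, adjusted p = 0.0469) had the lowest adjusted p. For the KO effect post-MI minus that post-sham, edgeR called 0 of the 19 (6 with an unadjusted p under 0.05) and DESeq2 1, Bhlhe40; the lowest adjusted p values by edgeR were those of Bhlhe40 (0.64, adjusted p = 0.147), Bhlhe41 (0.39, adjusted p = 0.249) and Nfil3 (0.43, adjusted p = 0.283). For this difference edgeR called Bhlhe40 when KO MI replicates 2 and 7 were left out (0.69, adjusted p = 0.00217).

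**Figure D5:**
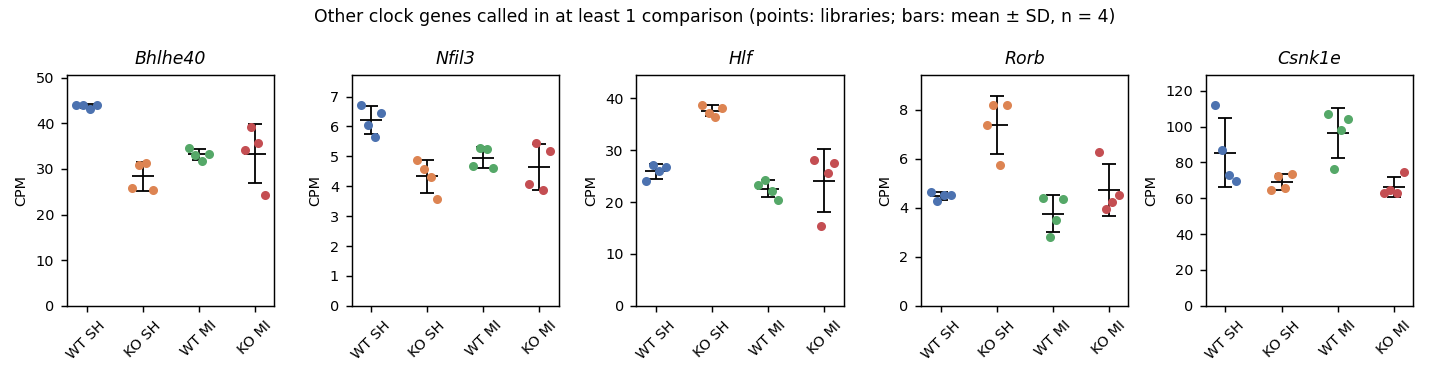
Levels in CPM (y axes from 0) of the 5 other clock genes called in at least 1 comparison; points are libraries and bars the mean ± SD, n = 4. Bhlhe40 and Nfil3 are lowest and Hlf and Rorb highest in KO SH, and Csnk1e is higher in WT MI (76.5 to 107 CPM) than in KO MI (62.9 to 74.5 CPM).

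Of 10 known outputs of the heart clock, 1 was called in each comparison of the genotypes, Dgat2, an enzyme of triglyceride synthesis, with a log2 fold change of -0.79 in KO SH (SE 0.18, adjusted p = 0.0145, edgeR) and of -1.06 in KO MI (SE 0.18, adjusted p = 0.00410). It was at 11.3 to 12.2 CPM in KO SH and at 15.1 to 29.2 CPM in WT SH, without overlap. Nampt, the rate-limiting enzyme of NAD salvage, was lower in all 4 comparisons with an adjusted p under 0.1 and below the minimum fold (-0.38 in KO SH, -0.33 in KO MI against WT MI, -0.36 in WT MI and -0.31 in KO MI against KO SH). Klf10, a zinc finger repressor, was at 0.32 in KO SH against WT SH (adjusted p = 0.0375) and -0.38 in KO MI against KO SH (adjusted p = 0.0120), where Por was at 0.27 (adjusted p = 0.0163). The next lowest adjusted p values were those of Kcnip2 in KO MI against WT MI (-0.44, adjusted p = 0.307) and of Kcnip2 (-0.51, adjusted p = 0.145) and Pfkfb3 (0.17, adjusted p = 0.331) in WT MI against WT SH. In the comparisons of infarction with sham surgery, 0 of the 10 were called by edgeR or DESeq2, with 2 (wild type) and 6 (Lrrc10-null) at an unadjusted p under 0.05. Tcap was called in the Lrrc10-null hearts when KO MI replicates 2 and 7 were left out (-0.54, adjusted p = 0.0401). For the KO effect post-MI minus that post-sham, edgeR and DESeq2 called 0 of the 10 (2 at an unadjusted p under 0.05 by edgeR), with Klf10 (-0.50, adjusted p = 0.156), Por (0.24, adjusted p = 0.274) and Wee1 (0.17, adjusted p = 0.434) lowest, and Klf10 was called without KO MI replicates 2 and 7 (-0.59, adjusted p = 0.0116).

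Since Per1 also answers to hormones and to acute signals, genes of those responses were read beside it. Of 12 glucocorticoid-responsive genes, Dusp1, a phosphatase that is also an immediate early gene, was called lower in KO SH against WT SH (-0.54, adjusted p = 0.00211, edgeR) and in KO MI against WT MI (-0.86, adjusted p = 5.88e-05). Mt2, a metallothionein, was called higher in both comparisons with infarction (1.56, adjusted p = 0.0528 in wild type and 1.72, adjusted p = 0.0115 in Lrrc10-null hearts), and Fkbp5, a chaperone partner of the glucocorticoid receptor, in the second (0.75, adjusted p = 0.0104). In WT MI against WT SH, Fkbp5 was at 0.53 (adjusted p = 0.108) without overlap of the groups, and DESeq2 called it there as well. Lowest by adjusted p among those not called were Tsc22d3 (-0.21, adjusted p = 0.152) and Sgk1 (-0.22, adjusted p = 0.164) in KO SH against WT SH, Sgk1 (-0.35, adjusted p = 0.0605) and Klf9 (-0.49, adjusted p = 0.165) in KO MI against WT MI, Tsc22d3 (-0.24, adjusted p = 0.144) in WT MI against WT SH and Dusp1 (-0.40, adjusted p = 0.0112) in KO MI against KO SH. For the difference of the KO effects, edgeR and DESeq2 called 0 of the 12 (2 at an unadjusted p under 0.05 by edgeR), with Zbtb16 (0.68, adjusted p = 0.269), Dusp1 (-0.31, adjusted p = 0.305) and Cdkn1a (0.40, adjusted p = 0.442) lowest. Mt1 was also called in KO MI against KO SH when KO MI replicates 2 and 7 were left out (0.65, adjusted p = 0.00378). The median of the 12 was -0.21 in KO SH against WT SH and -0.07 in WT MI against WT SH, the comparisons in which Per1 was called. Of 10 immediate early genes, 3 were called lower in KO SH against WT SH, Nr4a1 (-2.39, adjusted p = 2.86e-06), Fos (-1.75, adjusted p = 0.00491) and Egr3 (-1.34, adjusted p = 0.0298), and Nr4a1 alone in WT MI against WT SH (-1.91, adjusted p = 8.65e-05), where Atf3 (-0.71, adjusted p = 0.309) and Fos (-0.64, adjusted p = 0.330) came next. Nr4a1, an orphan nuclear receptor, was at 22.4 to 41.2 CPM in WT SH, 4.19 to 7.37 in KO SH and 6.41 to 8.996 in WT MI, so that like Per1 it was highest in WT SH without overlap. In KO MI, Nr4a1 (-1.34) and Fos (-1.20) were called against WT MI, and Nr4a1 (-0.87) and Jun (-0.71) against KO SH, with Ier2 at -0.37 (adjusted p = 0.0758) and -0.26 (adjusted p = 0.111). Fos lost its call against WT MI without KO MI replicates 2 and 7 (-1.52, adjusted p = 0.103). For the difference of the KO effects edgeR called 0 of the 10 (2 at an unadjusted p under 0.05) and DESeq2 called Nr4a1, with Nr4a1 (1.05, adjusted p = 0.190), Jun (-0.58, adjusted p = 0.349) and Ier2 (-0.27, adjusted p = 0.426) lowest by edgeR, and Jun was called by edgeR without KO MI replicates 2 and 7 (-0.76, adjusted p = 0.0965). Of the temperature-responsive genes Cirbp and Rbm3, 0 were called in any comparison by edgeR or DESeq2, with 1 at an unadjusted p under 0.05, Rbm3 in KO MI against KO SH (0.35, adjusted p = 0.0375). Whether these responses take part in the level of Per1 was not tested.

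Markers of cell types were read beside these genes. Of all genes tested, 5.01% were called in KO SH against WT SH and 2.78% in WT MI against WT SH. The share was 7.42% in KO MI against KO SH and 1.73% in KO MI against WT MI. Of 6 macrophage markers, 1 was called higher in WT MI against WT SH, 5 higher in KO MI against KO SH and 2 lower in KO SH against WT SH. Of 6 fibroblast markers, 3 were called higher in KO MI against KO SH, and of 6 erythroid markers all 6 were. Erythroid calls were also made in KO SH against WT SH (1 lower) and in KO MI against WT MI (2 higher). The 2 neutrophil markers tested were called higher in KO SH and in WT MI, each against WT SH, and in KO MI against KO SH. Among 4 skeletal muscle markers tested, 2 were called higher in KO MI against WT MI and 3 against KO SH. The 6 macrophage markers summed to 24.7 to 30.1 CPM in WT SH, 22.9 to 25.7 in KO SH, 33.9 to 57.6 in WT MI and 31.1 to 67.9 in KO MI. The 6 fibroblast markers summed to 2124 to 2498 CPM, 1989 to 2184, 2583 to 3034 and 2733 to 3080 in the same order. The 5 neutrophil markers summed to 0.749 to 1.42, 1.94 to 2.46, 4.29 to 15.1 and 3.94 to 9.23 CPM, with Ly6g at or under 3 counts in every library. The 6 cardiomyocyte markers summed to 25083 to 35821 CPM in WT SH and to 22457 to 25392 CPM in the other groups. Of these, 0 of 6 were called in any comparison by edgeR or DESeq2. By edgeR, 4 of 6 had an unadjusted p under 0.05 in KO SH against WT SH and 4 in WT MI against WT SH. In KO MI, 0 of 6 did against WT MI and 3 against KO SH. The 6 endothelial markers summed to 867 to 891 CPM in WT SH, 792 to 833 in KO SH, 726 to 814 in WT MI and 674 to 812 in KO MI. The 6 erythroid markers summed to 353 to 1133 CPM over all libraries, the highest sum being in KO MI. The Per1 mean was 10.6 CPM in KO SH, where the macrophage and fibroblast sums were at or under the WT SH range or overlapped it, and 10.8 CPM in WT MI, where both sums lay above it. The other lists moved in different ways beside the lower Per1. Endothelial sums were under the WT SH range in both of these groups, and neutrophil sums were above it in both. Cardiomyocyte and erythroid sums were under that range in KO SH and overlapped it in WT MI. The part of the cell makeup in the falls of Per1, Cry2 and Nr1d2 was not tested.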

How the data were processed

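Strand-specific total RNA libraries of mouse ventricles were sequenced by the authors, who deposited 1 table of expected counts per gene from RSEM, as whole numbers, for 16 libraries aligned to GRCm39. The submitters' processing notes name cutadapt 3.4, HISAT2 2.2.1 and RSEM 1.1.17, whereas the study's methods name Skewer and STAR with RSEM, and which made the table is not given in the sources used here. Total counts per library were 33783874 to 57470159, and 3 counts corresponded to 0.0577 to 0.0858 CPM. Groups came from the labels. Genes whose counts summed to 10 or more within every group (20159 of 51912) were fitted in R 4.3.3 with edgeR 4.0.16 (TMM, quasi-likelihood F-test, all 16 libraries in 1 fit), and called where the p adjusted by Benjamini-Hochberg was under 0.1 with a log2 fold change of 0.5 or more in size. CPM were on TMM-scaled library sizes. Single genes were also tested by the two-sided exact permutation test of log2(CPM + 0.05). Relations used log2 CPM with a prior count of 2, the group means removed, over all 331776 within-group orders, and 100000 permutations for pooled values. Likeness to Bmal1 and Dbp was ranked over genes with a mean of at least 1 CPM. Other clock, clock output and response genes were named where called or among the 3 lowest adjusted p of a comparison. A gene that met this rule is not reported here. The members and lists were chosen with earlier results of these data known. Alternatives were DESeq2 1.42.0, other scalings, filters, priors and thresholds, a replicate block, Xist as a covariate and leaving out libraries; fits and correlations without KO MI replicates 2 and 7 were chosen after seeing the data. The fitting code was tested on simulated data.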

Additional observations from a re-analysis of the deposited data

Results flagged for a closer look

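Cry2 in KO SH replicate 3 was at 17.8 CPM, while the other 3 KO SH libraries lay between 16.3 and 16.4 CPM. Its gap to the nearest library made up 0.984 of the range of the group, above Dixon's critical value for 4 samples. This was 1 of 40 tests of a gene in a group, and chance flags about 1 in 20 groups.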

How the results depend on the processing

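Both calls of Per1 held under every alternative run, with log2 fold changes from -0.76 to -0.61 in KO SH against WT SH and from -0.71 to -0.58 in WT MI against WT SH. With no minimum fold, the members called were 1 in KO MI against WT MI (Cry2), 2 in WT MI against WT SH and 3 in KO MI against KO SH. In the last comparison 1 was called without KO MI replicates 2 and 7 (Per3, -0.52), and 0 to 2 when 1 library was left out, 2 being without KO MI replicate 7. DESeq2 called 1 member for the difference of effects (Per1, 0.57). The relation of Bmal1 and Dbp was -0.58 with the group means kept, and that of Bmal1 and Per3 -0.79 and -0.98 in the low-Xist and high-Xist libraries alone, with exact permutation p over 0.05 in fewer libraries.

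The replicate numbers did not pair the samples: over 21 same-numbered pairs the correlation of deviations ran from -0.0623 to 0.112. Replicate number 7 belonged to KO MI replicate 7 alone, so the replicate block in effect left that library out. With the block, 1 member was called in KO MI against KO SH (Per3, -0.66), as without KO MI replicate 7 (-0.67). Uncalled log2 fold changes of opposite sign with the block were -0.12 for Per3 in KO MI against WT MI and 0.062 for Clock in KO MI against KO SH. For the difference of effects they were 0.028 for Clock, -0.010 for Per2 and -0.0012 for Dbp.

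Other uncalled values that changed sign were as follows, and the cause was not tested. In KO SH against WT SH, Bmal1 was at -0.0026 by DESeq2, -0.0016 with its size factors and -0.11 with Xist as a covariate, and Cry2 at 1.1e-05 with Xist. With Xist, Clock was at -0.042 and Cry1 at -0.074 in WT MI against WT SH, and Clock at 0.029 and Per2 at -0.022 for the difference of effects. Without KO MI replicates 2 and 7, Per2 was at -0.11 and Nr1d1 at -0.024 against WT MI, Clock at 0.0017 and Per2 at -0.21 against KO SH, and Per2 at -0.26 for the difference of effects. Leaving out 1 library gave ranges in KO SH against WT SH of -0.076 to 0.062 for Bmal1 and -0.061 to 0.049 for Cry1. In KO MI against WT MI they were -0.13 to 0.26 for Per3 and -0.021 to 0.093 for Nr1d1, and in WT MI against WT SH -0.031 to 0.10 for Per2 and -0.011 to 0.086 for Cry1. In KO MI against KO SH they were -0.063 to 0.052 for Clock, -0.058 to 0.16 for Per2 and -0.12 to 0.047 for Nr1d1. For the difference of effects they were -0.097 to 0.018 for Clock, -0.10 to 0.10 for Per2, -0.37 to 0.017 for Per3, -0.17 to 0.0083 for Nr1d2 and -0.0024 to 0.33 for Dbp. Counts were lowest for Bmal1, at 183 to 366 per library.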
